A study of Mus musculus with 3 samples.

Results

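KRAB zinc finger genes lie in tandem clusters on many mouse chromosomes, and 6 mm9 intervals known for such clusters were described here from a KAP1 and an H3K9me3 chromatin immunoprecipitation (ChIP-seq) library. The intervals run from 80.5 to 82.5 Mb on chromosome 10, from 21.5 to 23.5 Mb (proximal) and from 32.5 to 34 Mb (distal) on chromosome 17, from 29 to 31.5 Mb on chromosome 7, and from 149.5 to 151 Mb (proximal) and from 174.8 to 178 Mb (distal) on chromosome 2. Every deposited region with its midpoint in an interval was taken. This gave 118 of the 19549 KAP1 peaks and 555 of the 39526 H3K9me3 regions. The intervals total 12.7 Mb, which is 0.492% of the 2581 Mb that the lists span.

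Both libraries came from C2C12 cells, a myoblast line of strain C3H, in the proliferating state. One was made with a rabbit polyclonal antibody raised against KAP1 and the other with a commercial antibody against H3K9me3. A library without antibody from the same cells has no list analysed here. With 1 library per antibody there is no replicate and no test between groups, so shares carry 95% Wilson intervals and densities exact Poisson intervals that cover only the counting error. Nearby regions of a list may depend on each other.

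KRAB zinc finger proteins bind DNA through arrays of zinc fingers and recruit the corepressor KAP1 (TRIM28) through their KRAB domain. KAP1 in turn brings in SETDB1, which trimethylates lysine 9 of histone H3, and HP1 proteins bind that mark. Besides transposable elements, the zinc finger genes themselves are known carriers of KAP1 and H3K9me3, often over the part of the gene that encodes the fingers. An mm9 genome or annotation was not used here, so whether a given region lies on a gene, and on which part of it, was not checked, and regions are named by position in mm9, counted from 1.

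H3K9me3 covered more of the clusters, and in wider regions, than it did elsewhere. The intervals were chosen with earlier results of these data known, so these coverages and widths describe the chosen intervals and are no independent support. It covered 1149.6 kb, or 9.05% of the 6 intervals, and 38595 kb of the other 2568 Mb, so the covered share was 6.02-fold higher in the clusters. The density was 43.7 regions per Mb (interval 40.1 to 47.5) in the clusters and 15.2 per Mb (interval 15.02 to 15.33) elsewhere. The median width was 950 bp (quartiles 429.5 and 2123 bp) in the clusters and 604 bp (quartiles 322 and 1140 bp) elsewhere. The clusters thus differed from the rest in the number of regions and in their width.

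Regions of at least 5 kb are called broad below. The clusters held 53 of them, 9.55% of their 555 regions, where 2.02% of the whole list was as wide. Those 53 regions made up 48.1% of the covered length in the clusters, and broad regions made up 13.3% elsewhere. At 10 kb and more there were 22 in the clusters, or 3.96% of regions, where the whole list had 0.152%. The clusters therefore held 36.7% of all 60 regions of that width. Ranked by width over the whole list, 3 of the first 5, 5 of the first 10 and 10 of the first 20 regions lay in these intervals.

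**Figure D1:**
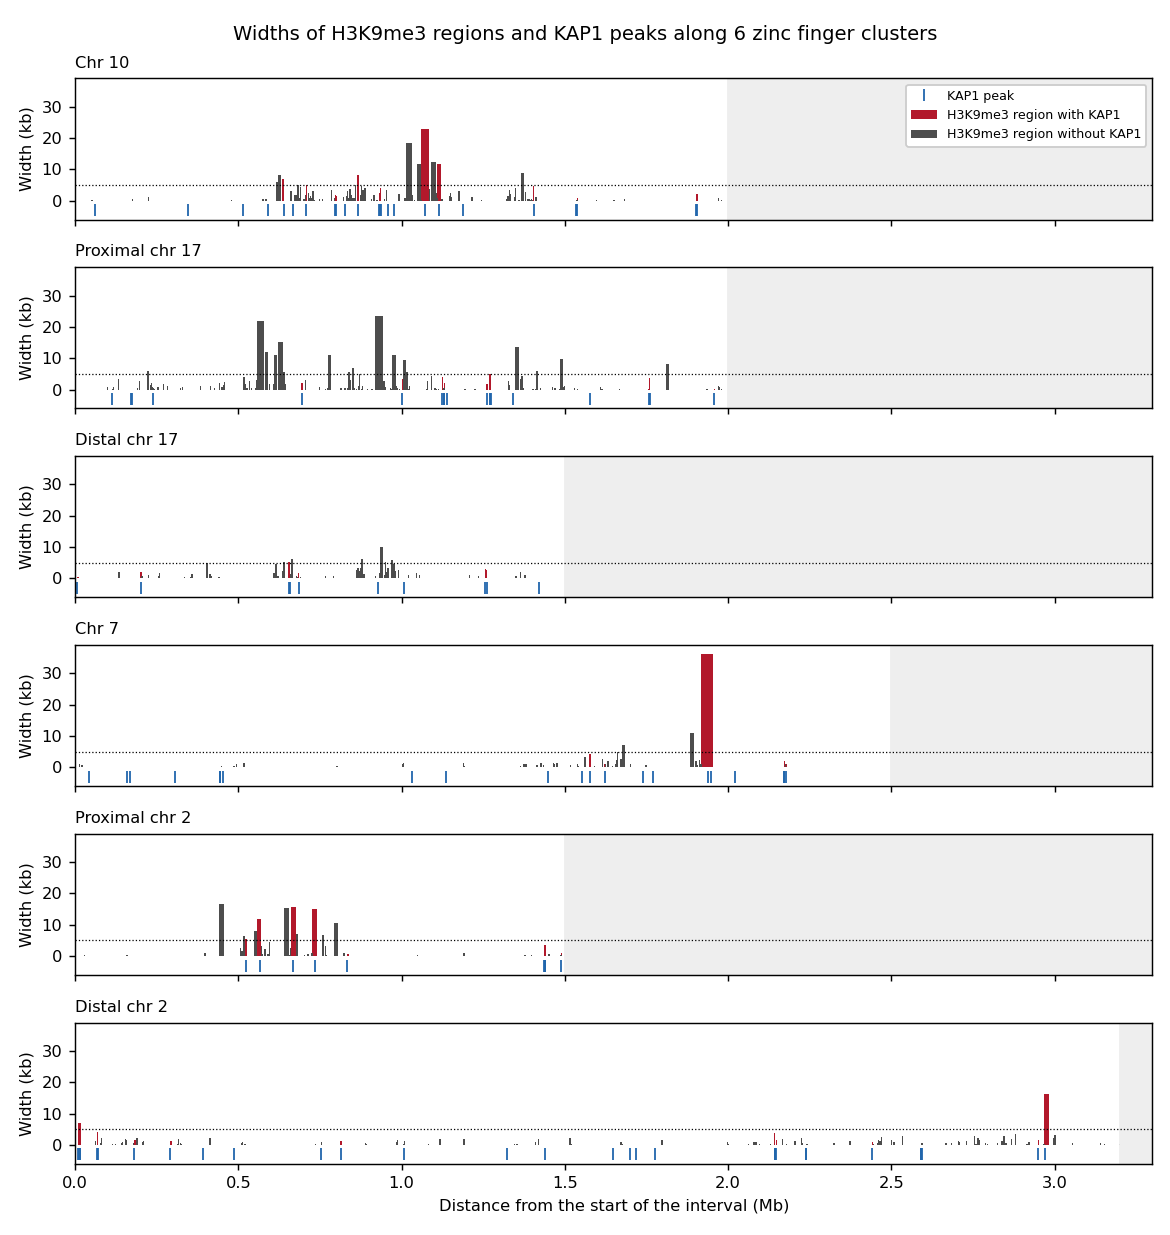
H3K9me3 regions and KAP1 peaks along the 6 clusters, by distance from the start of each interval in Mb. Bar height is the width of an H3K9me3 region in kb (bars under 4 kb are drawn 4 kb wide), red bars hold a KAP1 peak, grey bars do not, blue ticks are KAP1 peaks, the dotted line marks 5 kb and the shaded part lies beyond the interval. The tallest bar is the 36.3 kb region of chromosome 7, and none of the 18 bars above the line on proximal chromosome 17 is red.

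The broad regions were not spread evenly over the 6 intervals. The proximal chromosome 17 cluster had 18, the chromosome 10 cluster 12, the proximal chromosome 2 cluster 11, the distal chromosome 17 cluster 7, the chromosome 7 cluster 3 and the distal chromosome 2 cluster 2. As a share of a cluster's own H3K9me3 regions, the proximal chromosome 2 cluster led with 23.4%, and the distal chromosome 2 cluster was last with 1.67%, below the 2.02% of the whole list. That last share rests on 2 of 120 regions, too few to set the distal chromosome 2 interval apart from the whole list. Its median width of 984 bp was above that of the rest. Broad regions made up 15.3% of its covered length, against 13.3% outside the clusters. These differences rest on 1 library and were not tested.

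The widest region of the whole list lay in the chromosome 7 cluster, from 30916826 to 30953102. It spanned 36277 bp and had an H3K9me3 score of 4360, the highest in the list. The next widest of that cluster spanned 10936 bp from 30883502 to 30894437, and then 7118 bp from 30676679 to 30683796. All broad signal of chromosome 7 thus stood in a stretch of 276.4 kb, 11.1% of its interval. That stretch carried 53.5% of the covered length of the interval, whose total coverage was 4.69%.

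On chromosome 10 the widest region spanned 22981 bp from 81560488 to 81583468, rank 3 in the list. A region of 18404 bp from 81512126 to 81530529 and one of 12489 bp from 81591426 to 81603914 followed. They stood near each other, and 5 of the 12 broad regions of this cluster lay between 81.5 and 81.75 Mb, where 39.7% of the sequence was covered. Over the whole interval the coverage was 13.6%, and 92.3% of it lay between the first and the last broad region, a stretch of 761.3 kb.

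Proximal chromosome 17 had the highest coverage of the 6 intervals, 15.7%. Its widest region, rank 2 in the list, spanned 23472 bp from 22419920 to 22443391. It was followed by 21956 bp from 22056992 to 22078947 and 15185 bp from 22120979 to 22136163. Its broad regions were strung out over 1598 kb, or 79.9% of the interval, with 19.0% of that stretch covered.

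Distal chromosome 17 carried broad regions of moderate width only. The widest spanned 9991 bp from 33434216 to 33444206, and no region there reached 10 kb. The others named are 6253 bp from 33376409 to 33382661 and 6088 bp from 33160709 to 33166796. Coverage was 9.12%. The regions stood close, however: when those no more than 1 kb apart were joined, 8 rows made a run of 27.2 kb from 33432264 to 33459507.

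The chromosome 2 clusters differed in how many broad regions they held. In the proximal one the 3 widest regions were of nearly the same size, with 16619 bp from 149939962 to 149956580, 15652 bp from 150160625 to 150176276 and 15428 bp from 150140185 to 150155612. Its 11 broad regions fell within 364.9 kb, of which 39.7% was covered, the highest share among the 6 stretches from first to last broad region. They made up 75.1% of the covered length of the interval. In the distal cluster, the longest interval at 3.2 Mb, coverage was 4.73% and broad regions made up 15.3% of the covered length. Its widest region spanned 16338 bp from 177767277 to 177783614, near the far end. The second spanned 6883 bp from 174809662 to 174816544 at the near end, and the next 3997 bp from 174867010 to 174871006.

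**Figure D2:**
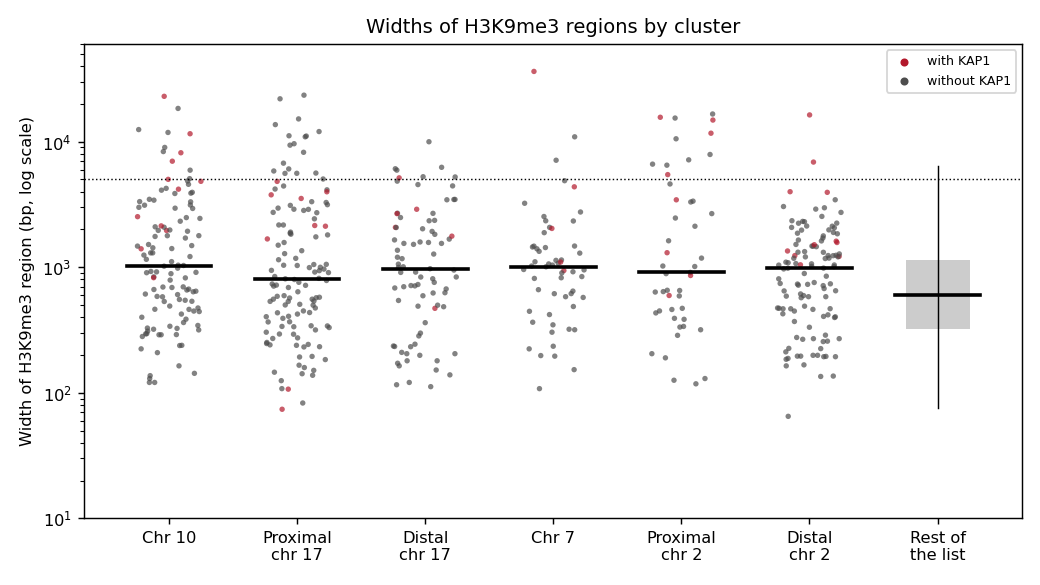
Width of every H3K9me3 region in the 6 clusters, in bp on a log scale, with the rest of the list at the right. Each point is a region, red where it holds a KAP1 peak, black lines are medians, the grey box spans the quartiles of the rest, its thin line the 1 to 99 percentiles, and the dotted line marks 5 kb. Medians of the clusters lie between 812.5 and 1020 bp, above the 604 bp of the rest.

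The median widths of the 6 clusters were alike, from 812.5 bp on proximal chromosome 17 to 1020 bp on chromosome 10, and all exceeded the median of the rest. The clusters differed instead in the upper part of their widths. The upper quartile was 4026 bp on proximal chromosome 2, 2811 bp on proximal chromosome 17 and 2735 bp on chromosome 10, against 1534 bp on distal chromosome 2 and 1473 bp on chromosome 7. The order of clusters by median width was therefore not their order by broad regions.

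Neighbouring broad regions in a cluster were separated by gaps of very unequal length. The 47 gaps had a median of 20.9 kb (interval of the median 7.96 to 50.0 kb), with quartiles of 4.10 and 66.5 kb. When regions no more than 1 kb apart were joined first, the median gap was 36474 bp. From centre to centre the median was 32.2 kb, with quartiles of 14.3 and 73.3 kb. The spacing was thus not regular, and runs of adjoining blocks alternated with long intervals. Of the gaps, 14 were under 5 kb, 13 from 5 to 30 kb, 10 from 30 to 100 kb and 10 longer. Which gaps correspond to gene bodies and which to sequence between genes was not checked, and repeated sequence to which reads map ambiguously was not masked.

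The short gaps joined broad regions into larger runs. The shortest, 294 bp, separated a region of 15652 bp from one of 7168 bp on proximal chromosome 2, and 9 of the 14 gaps under 5 kb held no H3K9me3 region at all. With regions no more than 1 kb apart joined, the widest run of the whole list was on chromosome 10, where 4 rows made 40.5 kb from 81547623 to 81588076. The second was the chromosome 7 region, at 37.6 kb, and the third was on proximal chromosome 17, where 5 rows made 36.0 kb from 22108453 to 22144421. When up to 5 kb was bridged, the chromosome 10 run grew to 76.1 kb from 10 rows and ranked second in the list, whose widest run was then 87.7 kb and lay elsewhere.

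The 3 longest gaps were 2951 kb on distal chromosome 2, from 174816545 to 177767276, and 330.1 kb and 326.7 kb on proximal chromosome 17, from 21726909 to 22056991 and from 22520206 to 22846910. They were not empty of the mark. The first held 111 narrower H3K9me3 regions, the second 32 and the third 17. Over all gaps, 346 narrower regions covered 7.46% of the gap length, and the share was 31.7% in gaps under 5 kb and 6.32% in gaps of 100 kb and more.

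The median gap differed between clusters, within wide intervals. It was 7.96 kb on chromosome 10 (11 gaps), 12.0 kb on distal chromosome 17 (6 gaps), 18.5 kb on proximal chromosome 2 (10 gaps) and 27.8 kb on proximal chromosome 17 (17 gaps). The interval of the median ran from 0.948 to 145.7 kb on chromosome 10 and from 6.04 to 67.5 kb on proximal chromosome 17, so no order of these clusters by spacing can be read. Proximal chromosome 2 had no gap longer than 71.9 kb. Chromosome 7 had 2 gaps, of 22.4 and 199.7 kb.

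**Figure D3:**
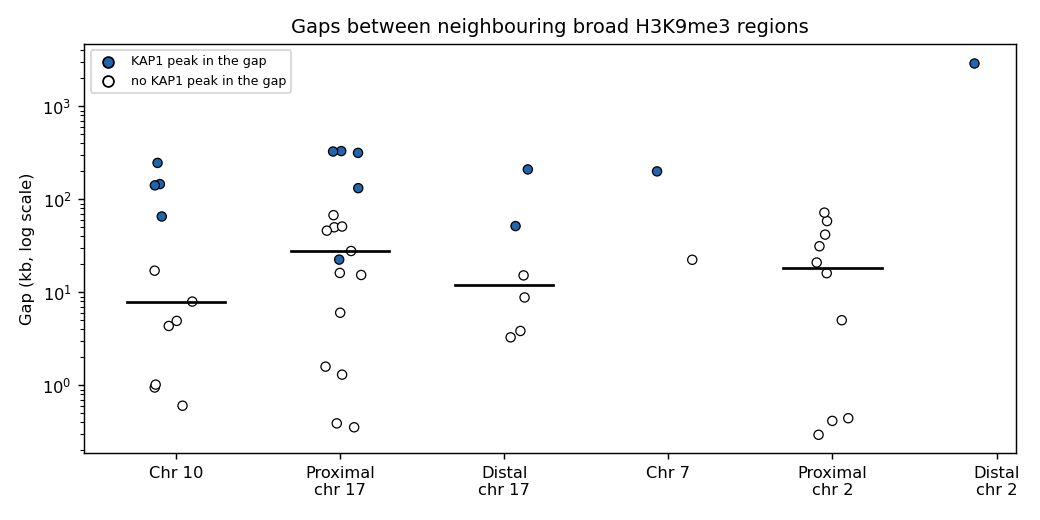
Length of each gap between neighbouring broad H3K9me3 regions by cluster, in kb on a log scale. Each circle is a gap, filled where a KAP1 midpoint lies in it, and black lines are medians for clusters with more than 2 gaps. All 10 gaps of 100 kb or more are filled, and 1 of the 27 gaps under 30 kb is.

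KAP1 peaks were little denser in the clusters than elsewhere. Their density was 9.29 per Mb (interval 7.69 to 11.1) in the clusters and 7.57 per Mb (interval 7.46 to 7.67) in the rest, a ratio of 1.23, while the ratio for H3K9me3 regions was 2.88. By cluster the density lay between 6.67 per Mb on distal chromosome 17 and proximal chromosome 2 and 12.5 per Mb on chromosome 10, with overlapping intervals. An H3K9me3 region was shared by 68 of the 118 KAP1 peaks (57.6%, interval 48.6 to 66.2), where 44.1% of the whole list did. The median KAP1 score of those with H3K9me3 was 141.5 (quartiles 90.1 and 197.8) in the clusters and 134.8 (quartiles 93.6 and 221.1) elsewhere, so the spread of the scores was much the same.

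All 10 KAP1 peaks of proximal chromosome 2 overlapped H3K9me3 (interval from 72.2%). On chromosome 7, 7 of 22 did (31.8%, interval 16.4 to 52.7). The other clusters lay between, with 14 of 25 on chromosome 10, 12 of 19 on proximal chromosome 17, 7 of 10 on distal chromosome 17 and 18 of 32 on distal chromosome 2. The intervals of proximal chromosome 2 and chromosome 7 do not overlap, but no test was made over 1 library.

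Seen from the mark, KAP1 was less frequent in the clusters than over the whole list. Of their 555 H3K9me3 regions 51 held a KAP1 peak (9.19%, interval 7.06 to 11.9), where 15.4% of the whole list did. In stretches of chromosomes 13 and 4 taken for comparison the share was 5.01% and 5.49%. Regions there were narrower, with medians of 309 and 376 bp against 950 bp in the clusters. Elsewhere 6.30% of regions under 600 bp held KAP1, so these shares do not compare regions of like width. Between the clusters and the rest of the list, the difference was widest for broad regions. KAP1 lay in 13 of the 53 broad regions of the clusters (24.5%, interval 14.9 to 37.6) and in 599 of the 746 elsewhere (80.3%, interval 77.3 to 83.0), where 76.6% of all broad regions in the list held it. Without the proximal chromosome 17 cluster, which had none, the share was 13 of 35 (37.1%, interval 23.2 to 53.7). Of the 187 broad regions in the list without KAP1, 40 (21.4%) lay in the clusters, against 13 (2.12%) of the 612 with it.

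The share was lower in the clusters in each width class above 2 kb. From 2 to 3 kb it was 15.4% (8 of 52) in the clusters and 44.8% elsewhere, and from 3 to 5 kb 22.7% (10 of 44) in the clusters and 69.0% elsewhere. From 5 to 10 kb the shares were 19.4% (6 of 31) in the clusters and 81.1% (574 of 708) elsewhere. At 10 kb and more they were 31.8% (7 of 22, interval 16.4 to 52.7) in the clusters and 65.8% (25 of 38, interval 49.9 to 78.8) elsewhere, where the intervals overlap. In the clusters the share stayed below 32% in every class, and elsewhere it was higher in each wider class up to 10 kb.

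**Figure D4:**
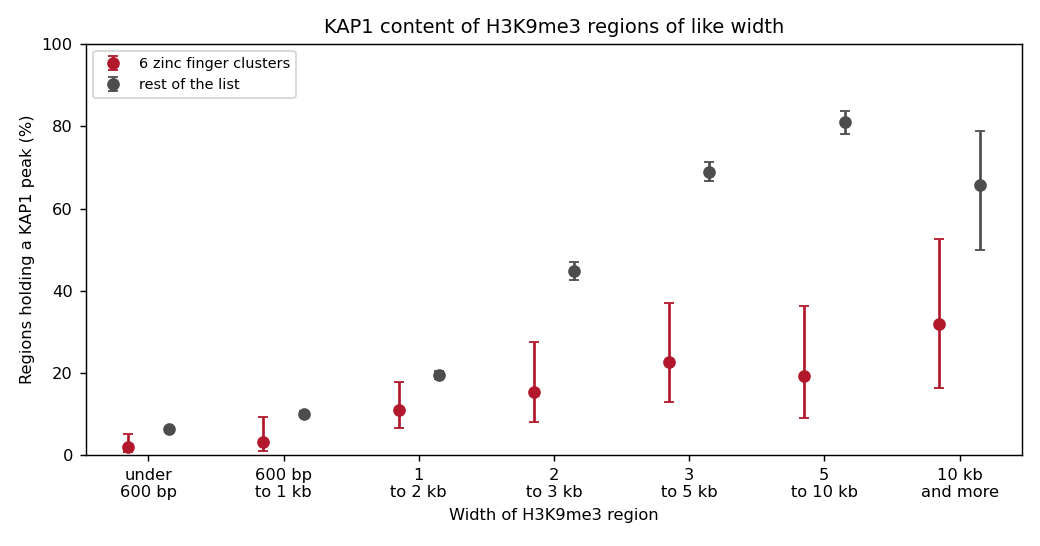
Share of H3K9me3 regions that hold a KAP1 peak, in percent, by width of the region, in the 6 clusters (red) and in the rest of the list (grey). Points are shares and bars 95% Wilson intervals. In every class under 10 kb the red intervals lie wholly below the grey ones, and at 10 kb and more, with 22 and 38 regions, they overlap.

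Where KAP1 did lie in a broad region of the clusters, it was usually a single peak. Of the 13 such regions 3 held more than 1 (23.1%), against 486 of 599 (81.1%) elsewhere, and the mean was 1.46 KAP1 peaks in the clusters and 2.83 elsewhere. Per Mb of broad region there were 34.4 KAP1 midpoints in the clusters (interval 20.7 to 53.6) and 326.7 elsewhere (interval 311.3 to 342.8). In narrower regions the densities were 73.8 per Mb in the clusters (interval 53.59 to 99.02) and 173.8 elsewhere. Outside any H3K9me3 region they were close, at 4.76 per Mb in the clusters (interval 3.59 to 6.20) and 4.72 elsewhere.

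Within the clusters, broad regions still held more KAP1 per Mb than the sequence outside them. The ratio was 4.22 (exact interval 2.44 to 6.93), from 34.4 per Mb in broad regions and 8.15 per Mb outside. It was 6.71 without the proximal chromosome 17 cluster and 3.01 without the distal chromosome 2 cluster. With broad set at 10 kb it was 2.60 (interval 1.10 to 5.31), and at 3 kb 7.58. In the clusters the density was 73.8 per Mb in narrower regions and 34.4 per Mb in broad ones, with intervals that just overlap. The order was the opposite in the rest of the list. Proximal chromosome 17 gave 187.3 kb of the broad length and no midpoint in it. The density in narrower regions was not computed without that cluster, so how far the order rests on it was not tested.

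The 18 broad regions of proximal chromosome 17 held no listed KAP1 peak (0%, interval 0 to 17.6). Their median distance to a KAP1 peak was 64.3 kb, with a range of 2.46 to 148.2 kb, and 12 of them lay more than 50 kb away. Between 22194619 and 22501700, a stretch of 307.1 kb with no KAP1 peak, stood 6 broad regions, among them the 23472 bp one, and 32 H3K9me3 regions in all. KAP1 peaks of this cluster instead lay in regions of 74 to 4829 bp, where 12 of the 19 overlapped H3K9me3. Over all 6 clusters the 40 broad regions without KAP1 were a median of 28.6 kb from the nearest peak, and none came within 1 kb of one. The 147 such regions elsewhere were a median of 41.2 kb away, and 3 came within 1 kb. Broad regions without KAP1 were thus not farther from a peak in the clusters as a whole than elsewhere.

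The deposited KAP1 list leaves out some numbered calls, which bears on these absences. A region said to hold no KAP1 is one without a listed peak, and no listed score is below 70. Scores of the calls left out are unknown, so whether they were weaker was not checked. The numbers in the peak names rise along each cluster, and 118 of the 200 numbers between the first and last peaks of the clusters are listed (59.0%, against 53.7% over the whole list). For 13 of the 40 broad regions without KAP1 no number was missing between the listed peaks on either side. For the other 27, of which 14 lay on proximal chromosome 17, at least 1 call not listed lay somewhere between those peaks, and its position is unknown. The H3K9me3 list was nearer complete in the clusters, with 555 of 580 numbers (95.7%), against 84.3% over the whole list.

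By cluster, KAP1 lay in 5 of 12 broad regions on chromosome 10, 4 of 11 on proximal chromosome 2, 1 of 7 on distal chromosome 17, 1 of 3 on chromosome 7 and both on distal chromosome 2. Few regions stand behind each share, and all intervals but that of proximal chromosome 17 are wide. The 2 regions of distal chromosome 2 have an interval that starts at 34.2%.

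Inside the broad regions, the place of KAP1 could not be told from an even spread. The outer 20% at each end, together 40% of the length, took 5 of 19 midpoints (26.3%, interval 11.8 to 48.8). Over the whole list 48.5% of such midpoints did, and outside the clusters 815 of 1673 (48.7%, interval 46.3 to 51.1). In the middle 20% lay 7 midpoints (36.8%) in the clusters and 15.1% elsewhere. The cluster's interval includes 40% and also 48.7%, so at 19 midpoints a different placement is not shown. The share was 35.1% in regions of at least 3 kb, 12.5% in those of at least 10 kb, and 38.5% when regions up to 1 kb apart were joined. The median distance from a KAP1 midpoint to the nearer end was 2851.5 bp in the clusters and 1394.5 bp elsewhere, among regions of different widths.

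In the widest regions with a single KAP1 peak, the peak stood well inside the region. In the 22981 bp region of chromosome 10 the peak from 81571867 to 81573465, with a score of 257.4, had its midpoint 53.0% of the way along, 10.8 kb from the nearer end. In the 15652 bp region of proximal chromosome 2 the peak from 150167486 to 150168878, with a score of 300.0, stood at 48.3%. It was also the highest-scoring KAP1 peak of that cluster. In the 14871 bp region from 150225481 to 150240351 the KAP1 peak stood at 60.9%, and in the 11684 bp region from 150056559 to 150068242 at 70.7%. In the 16338 bp region of distal chromosome 2 a weak peak with a score of 77.3 stood at 25.1%.

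The widest region of all held 2 KAP1 peaks of unlike score. In the 36277 bp region of chromosome 7 the peak from 30936703 to 30938163 scored 528.2 and stood 56.8% of the way along, 15.7 kb from the nearer end. The other, from 30946783 to 30947342, scored 80.8 and stood at 83.4%, and the lowest score in the KAP1 list is 70. The 5152 bp region of distal chromosome 17, from 33152274 to 33157425, held 2 peaks as well, at 68.5% and 99.7%, the second reaching past the end of the region.

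A different arrangement was seen on distal chromosome 2. The 6883 bp region from 174809662 to 174816544 held 5 KAP1 peaks, at 4.45%, 26.1%, 41.4%, 59.4% and 89.9% of its length. Their scores were 189.6, 180.0, 81.8, 79.9 and 285.1 in the same order, so the outermost peaks had the highest scores. This region alone gave 5 of the 19 midpoints. Without it, 3 of 14 midpoints (21.4%, interval 7.57 to 47.6) lay in the outer 20%.

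**Figure D5:**
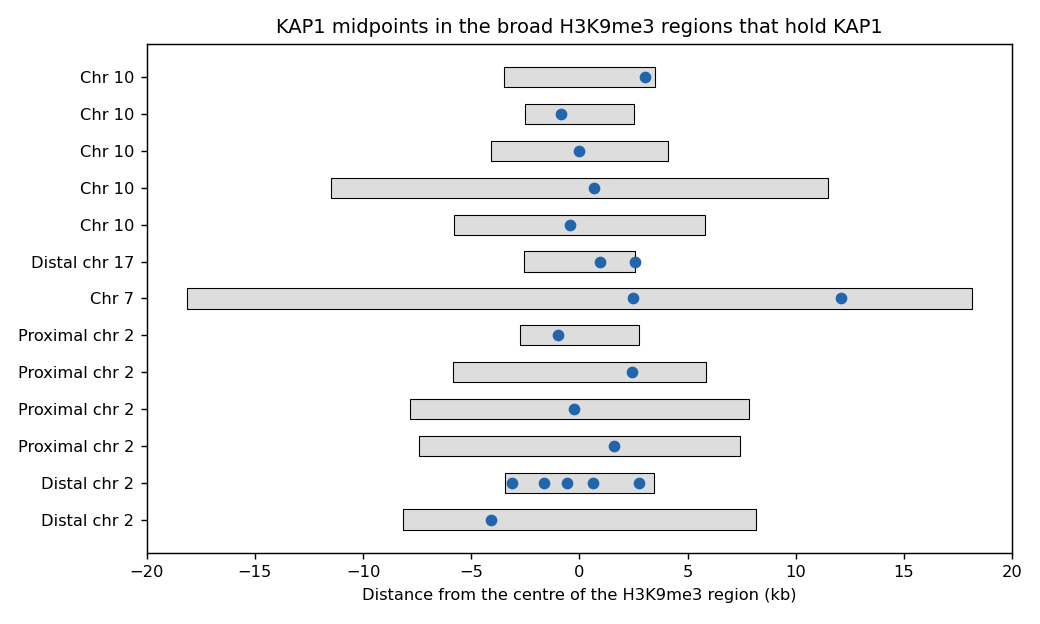
The 13 broad H3K9me3 regions of the clusters that hold KAP1, drawn to scale and centred, in kb from their centres. Grey bars are the regions, grouped by cluster, and blue points are KAP1 midpoints. Most bars carry a single point away from the ends, and the 6883 bp bar of distal chromosome 2 carries 5.

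Most KAP1 peaks of the clusters lay outside broad regions. Of the 118 peaks, 19 (16.1%) overlapped a broad region, against 8.71% in the rest of the list. Another 49 (41.5%) overlapped a narrower region, against 35.3% elsewhere, and 7 lay within 1 kb of one. Farther off, 18 lay from 1 to 10 kb away, and 25 (21.2%) beyond 10 kb, against 34.1% elsewhere. The median width of a host region, broad ones included, was 3531 bp in the clusters and 2502 bp elsewhere.

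KAP1 also lay in the gaps, mainly in the long ones. Of the 47 gaps 13 held KAP1 midpoints, 55 in all, of which 29 belonged to peaks with H3K9me3. Each of the 10 gaps of 100 kb or more held at least 1, and together they held 52 of the 55. The 2951 kb gap of distal chromosome 2 alone held 26. Long gaps also made up most of the gap length, 4998 of 5758 kb, so most midpoints would lie there under an even spread too. Of the 27 gaps under 30 kb 1 did, and those gaps add up to 225.1 kb, against 4998 kb for the long ones. Proximal chromosome 2 had no KAP1 peak in any of its 10 gaps, and its 4 KAP1 peaks between the first and last broad region all lay in broad regions.

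In none of the 6 clusters did the highest-scoring KAP1 peak lie in the widest H3K9me3 region. On chromosome 10 it lay from 81430651 to 81432358, scored 342.5 and stood in a region of 2529 bp. On proximal chromosome 17 it lay from 22768670 to 22770379, scored 396.4 and stood in a region of 4829 bp that held 3 KAP1 peaks, and on distal chromosome 2 from 176941268 to 176943570, with 340.3, in a region of 3951 bp that also held 3. In 2 clusters it was without H3K9me3. On distal chromosome 17 the peak from 33920402 to 33921514 scored 663.3 and lay 43.0 kb from the nearest H3K9me3 region. On chromosome 7 the peak from 29157732 to 29158407 scored 2220, by far the highest in the clusters, and lay 111.9 kb away. On proximal chromosome 2 it stood in the second widest region, of 15652 bp, which makes 4 with and 2 without the mark.

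For comparison, 2 other stretches rich in H3K9me3 were taken after values were seen, from 65 to 67 Mb on chromosome 13 and from 145 to 147.5 Mb on chromosome 4. Zinc finger gene clusters are known on chromosome 13 and distal chromosome 4 as well. Whether these stretches lie in them was not checked, so they do not stand for sequence free of such genes. The 6 clusters held 43.7 H3K9me3 regions per Mb, against 169.5 per Mb on chromosome 13 and 131.2 per Mb on chromosome 4. Coverage was 9.05% in the 6 clusters, close to the 9.82% of the chromosome 13 stretch and the 7.53% of the chromosome 4 stretch. The median width was 950 bp in the clusters, 309 bp on chromosome 13 and 376 bp on chromosome 4, and broad regions were 9.55% of regions in the clusters (53 of 555), 0.590% on chromosome 13 (2 of 339) and none of 328 on chromosome 4. KAP1 density was 9.29 per Mb in the clusters (interval 7.69 to 11.1), 20.5 per Mb on chromosome 13 (interval 14.7 to 27.8) and 22.8 per Mb on chromosome 4 (interval 17.3 to 29.5). A like share of covered sequence thus came from fewer regions per Mb and wider ones in the 6 clusters, with fewer KAP1 peaks per Mb. By overlap the order was the other way. KAP1 lay in 9.19% of the H3K9me3 regions of the clusters, against 5.01% on chromosome 13 (interval 3.15 to 7.88) and 5.49% on chromosome 4 (interval 3.50 to 8.51). That share differed with width, and the regions compared were of unlike width. Among regions of at least 3 kb, KAP1 lay in 23 of 97 in the clusters, 2 of 7 on chromosome 13 and 4 of 5 on chromosome 4. Of the KAP1 peaks, 57.6% overlapped H3K9me3 in the clusters, against 48.8% on chromosome 13 and 36.8% on chromosome 4, with intervals that overlap that of the clusters. None of these differences was tested.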

How the data were processed

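The study's ChIP-seq libraries of proliferating C2C12 cells were aligned to mm9, and Bowtie2 2.2.1 is named, per the submitters' processing notes. Each of the 2 deposited lists gives positions and a score per region. What the score that the authors deposited measures, the H3K9me3 caller, its settings and any control are not stated in the sources used here, and KAP1 names have the form MACS writes. Scores only describe and rank regions within a list. Depth is unknown.

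Regions were assigned to an interval by midpoint. Overlap meant at least 1 bp and broad at least 5 kb. Gaps run from edge to edge between neighbouring broad regions of a cluster. Intervals are 95% Wilson, exact Poisson, exact conditional binomial (ratio) or order-statistic (median). No test was run, with 1 library per antibody. The computation was tested on simulated regions. Regions named are the 3 widest H3K9me3 regions and highest-scoring KAP1 peak per cluster, broad regions with most KAP1 where they hold 2 or more, the 3 longest gaps and the KAP1 peaks in a cluster's widest region. Others, the gap classes and the chromosome 13 and 4 stretches were chosen after values were seen. Intervals and lists were chosen with earlier results of these data known. Alternatives changed the overlap limit, the scores included, the 5 kb limit, joining, interval edges and clusters included. Python 3.11.15, numpy 2.4.6, pandas 2.3.3, scipy 1.17.1 and matplotlib 3.10.9 were used.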

Additional observations from a re-analysis of the deposited data

How the results depend on the processing

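Of 85 alternative values, 78 stayed within the interval of the main value or within 1.5 times of it, and 7 moved. This tally does not measure robustness, because some values could hardly move. The score follows width, so leaving out the lower 50% of H3K9me3 scores kept the same 53 broad regions and median gap. The outer 10% at either end took 15.8% of midpoints, but this was set against the interval for the outer 20%. Values with 1 cluster left out share regions with the main value. With the lower 50% of KAP1 scores left out, 74.6% of cluster KAP1 peaks overlapped H3K9me3 and 7.03% of H3K9me3 regions held KAP1. Neither share was computed outside the clusters under this cut, so neither can be set against the uncut shares of the whole list. Outside the clusters, too, KAP1 peaks with H3K9me3 had a higher median score than those without it. With regions up to 1 kb apart joined, 11.9% held KAP1. The count of broad regions was 97 at 3 kb, 22 at 10 kb and 35 without proximal chromosome 17, as follows from what each removes or adds. At 3 kb the density ratio of KAP1 in broad regions over outside was 7.58, and at 10 kb 2.60 (interval 1.10 to 5.31), and the cause was not tested. The median gap was 36474 bp with joining, and the outer 20% took from 12.5% (10 kb) to 38.5% (joined) of midpoints. The share of broad regions with KAP1 was 23.7% at 3 kb, 31.8% at 10 kb, 29.6% with joining and from 19.5% to 37.1% with 1 cluster left out. No paired analysis was possible because each antibody has 1 library. Since depth is unknown, a region missing from a list may be undetected.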
